A study of Mus musculus with 6 samples.

Results

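DNA replication and S phase genes were examined in cells sorted from the aorta-gonad-mesonephros (AGM) of mouse embryos, the embryonic region around the dorsal aorta where blood stem cells first arise. The 45 genes were taken by symbol from a list of licensing factors, helicase subunits, polymerases, fork proteins, enzymes of nucleotide supply, chromatin assembly factors and G1/S regulators. All 45 were found among the 51912 genes listed in the count files, and all 45 were among the 12668 genes that passed the filter on low counts. The embryos were at E10.5 and carried MacGreen, an EGFP reporter under the promoter of Csf1r, and GFP therefore marks macrophages together with any other cell in which this promoter is active. Cells positive for GFP were sorted into those without surface mannose receptor (CD206, product of Mrc1), called CD206neg, and those with it, called CD206pos. Both populations came from each of 3 independent litters, which makes 3 libraries per group, and each library pooled 3 to 5 AGM. No other genotype, treatment or time point was compared, and both groups carry the reporter.

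A cell that is about to divide copies its genome once. In G1 the origin recognition complex (ORC), Cdc6 and Cdt1 load the MCM helicase ring onto origins, and at the start of S phase Cdc45 and the GINS complex join the ring and switch it on. Polymerases, the sliding clamp, its loader and the single-strand binding protein RPA then work at the fork, while ribonucleotide reductase and its partners supply deoxynucleotides. Many of these genes are switched on together at the G1/S boundary by E2F transcription factors, and macrophages of the embryo are known to divide in their tissues.

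Differences between the CD206neg and CD206pos populations were small for most of the 45 genes, and more genes were lower in CD206pos than higher. The median log2 fold change, CD206pos over CD206neg, was -0.09, with 31 genes below 0 and 14 above. Whether the levels are equal was not tested. Cdc45 was the only member called in edgeR, at 39.3% lower in CD206pos, and no member was called higher. In edgeR's quasi-likelihood test with Benjamini-Hochberg adjustment over all tested genes, 1 of 45 members was lower at an adjusted p under 0.05, against 1.9% of all tested genes, and 0 were higher, against 2.97%. At an unadjusted p under 0.05, 10 members were lower, against 8.05% of all tested genes, and 0 were higher, against 9.53%. DESeq2 called 4 members lower, Cdc45, Orc2, Dut and E2f8, where it called 4.34% of all tested genes lower, and limma-voom called Cdc45 and Dut, where it called 2.23% lower. Neither tool called a member higher. Over all 12668 tested genes DESeq2 called 1210 in both directions together, 550 of them lower, and limma-voom called 814, 283 of them lower. The Cdc45 call was lost on leaving out a single library, whether CD206neg replicate 1, 2 or 3 or CD206pos replicate 2 or 3 (edgeR adjusted p between 0.102 and 0.162), and on leaving out both libraries of litter 1, 2 or 3 (adjusted p between 0.0874 and 0.339).

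Depth was even, with 16730846 to 18214283 reads in genes per library. At this depth 3 reads correspond to 0.165 to 0.179 CPM, the count scaled to library size. The member with the fewest reads, E2f2, had at least 77 reads in every library. Values below are CPM scaled by TMM, a method that assumes most genes do not differ, and log2 fold changes are CD206pos over CD206neg. Mrc1, which encodes the receptor used for sorting, was at 51.6, 119 and 112 CPM in CD206neg and at 1458, 1792 and 1506 CPM in CD206pos, and so followed the labels. Csf1r was at 1600 ± 157 and 2284 ± 615 CPM (SD, n = 3). The 8 macrophage markers examined include Mrc1. They summed to 3196 to 4060 CPM in the CD206neg libraries and 5952 to 8629 CPM in the CD206pos libraries. In edgeR 5 of them were called higher, namely Mrc1, Fcgr1, Cd68, Aif1 and Adgre1. The part of Mrc1 in these sums and calls follows from the sort. The 7 blood progenitor markers summed to 708 to 948 CPM in CD206neg and 50.6 to 78.1 CPM in CD206pos, where Kit had no read. Most of the CD206neg sum was Cd34, at 584 and 38.1 CPM as group means. In edgeR 6 of the 7 were called lower, against 1.9% of all tested genes. The other, Cd48, was at 30.95 and 26.6 CPM (edgeR adjusted p = 0.81). The 7 granulocyte precursor markers summed to 1861 to 2852 CPM in CD206neg and 17.4 to 69.7 CPM in CD206pos, where Ms4a3, S100a8, S100a9 and Ctsg had no read. The 6 megakaryocyte markers summed to 74.8 to 107 and 0 to 3.30 CPM, and the 6 endothelial markers to 97.9 to 154 and 31.2 to 57.1 CPM. Erythroid markers (9) summed to 4.36 to 6.03 CPM in CD206neg and 11.3 to 14.6 CPM in CD206pos. Most of the CD206pos sum was Epor, at 0.947 and 10.7 CPM as group means. Epor was not called in edgeR (adjusted p = 0.12) and was called higher by DESeq2 and limma-voom. Klf1 went the other way, at 1.72 and 0.0771 CPM. Mesenchymal markers (5) were at 1.83 to 71.3 CPM, highest in litter 3 of both groups, and epithelial (4) and neural (4) markers were at most 4.34 CPM. The cells without CD206 thus carried transcripts of blood precursors beside those of macrophages, and their part in each difference given below was not tested. In sorted bulk RNA, fewer cells in S phase and less RNA per cell cannot be told apart.

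Promoters of 4 helicase genes are shown with the words that E2F and CCAAT-binding factors are known to recognise. Words of the E2F type (TTTGGCGC, TTTCGCGC, TTTGCCGC or TTTCCCGC, on either strand, overlaps counted) and the CCAAT box were searched in windows from 250 bases before to 50 bases after each RefSeq start (GRCm38.p6). The Cdc45 window, chr16:18811923-18812222 on the minus strand, is shown because Cdc45 was the member called. Mcm3 (chr1:20820263-20820562, minus strand), Mcm5 (chr8:75109259-75109558, plus strand) and Mcm6 (chr1:128359656-128359955, minus strand) are shown as examples from the MCM ring with 2 or 3 E2F-type words each. Mcm7 and Rfc3 carry 2 each and are not shown. Capitals mark the words found, runs of 8 or more being E2F-type and runs of 5 being the CCAAT box or its reverse complement.
Cdc45: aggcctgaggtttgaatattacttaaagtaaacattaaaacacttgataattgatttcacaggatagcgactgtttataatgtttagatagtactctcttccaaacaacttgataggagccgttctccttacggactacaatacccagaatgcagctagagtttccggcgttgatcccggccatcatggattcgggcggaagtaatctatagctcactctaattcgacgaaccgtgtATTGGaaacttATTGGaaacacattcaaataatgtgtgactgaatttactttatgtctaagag
Mcm3: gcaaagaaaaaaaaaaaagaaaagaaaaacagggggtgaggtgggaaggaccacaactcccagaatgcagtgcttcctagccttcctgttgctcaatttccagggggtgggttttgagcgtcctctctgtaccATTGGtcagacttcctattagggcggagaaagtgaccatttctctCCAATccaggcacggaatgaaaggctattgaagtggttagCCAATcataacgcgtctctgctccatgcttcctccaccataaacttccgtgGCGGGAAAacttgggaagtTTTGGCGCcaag
Mcm5: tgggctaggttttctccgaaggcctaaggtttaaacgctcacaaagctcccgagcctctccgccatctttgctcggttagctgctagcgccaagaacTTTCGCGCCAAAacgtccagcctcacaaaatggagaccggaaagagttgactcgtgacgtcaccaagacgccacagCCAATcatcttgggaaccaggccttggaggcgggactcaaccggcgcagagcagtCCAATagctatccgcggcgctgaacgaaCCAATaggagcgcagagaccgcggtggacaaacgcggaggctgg
Mcm6: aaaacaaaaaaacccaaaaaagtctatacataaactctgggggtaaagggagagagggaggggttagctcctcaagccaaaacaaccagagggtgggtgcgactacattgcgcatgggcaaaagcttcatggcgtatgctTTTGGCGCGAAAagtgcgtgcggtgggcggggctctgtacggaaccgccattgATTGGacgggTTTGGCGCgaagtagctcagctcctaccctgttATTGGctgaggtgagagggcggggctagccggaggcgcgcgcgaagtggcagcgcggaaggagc

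RefSeq windows were matched by symbol for 37 of the 45 members. An E2F-type word stood in the windows of 14 of these 37 genes, or 37.8%, against 2.61% of 27025 genes with a window. They are Orc1, Cdc6, Cdt1, Mcm3, Mcm5, Mcm6, Mcm7, Gins3, Pola1, Pold1, Rfc3, Lig1, E2f2 and E2f7. A CCAAT box stood in 24 of the 37, or 64.9%, against 41.1% of all genes with a window. In the Mcm5 window 2 E2F-type words overlap 153 and 149 bases before the start, and in Mcm6 one pair overlaps 110 and 106 bases before it. Cdc45 has no E2F-type word in its window, which says only that these letters are not there, and it has 2 reversed CCAAT boxes 13 and 2 bases before the start. The median log2 fold change was -0.10 for the 14 members with an E2F-type word and -0.12 for the 23 with a window and none. A difference between these medians was not tested.

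The members as a group lay close together. Their median log2 fold change was -0.09, beside a median of 0.00 over all tested genes, with 31 members below 0 and 14 above. The range ran from -0.72 (Cdc45) to 0.70 (E2f2), and 40 of 45 members (88.9%) were within 0.5 of 0 on the log2 scale, against 63.5% of all tested genes. For 39 members (86.7%) the 95% interval of the log2 fold change lay wholly within a 2-fold difference in either direction, against 42.5% of all tested genes. The exceptions were Orc2, Cdc45, Dut and E2f8, whose intervals reached beyond a 2-fold lower level, and E2f1 and E2f2, whose intervals reached beyond a 2-fold higher one. These intervals are per gene and not adjusted for the number of genes, and they are narrower where a gene has more reads. The shares over all tested genes are not matched for reads per gene. With library totals as the only scaling, 38 members lay below 0 and 7 above, and the median was -0.18, while the median over all genes moved by -0.09.

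**Figure D1:**
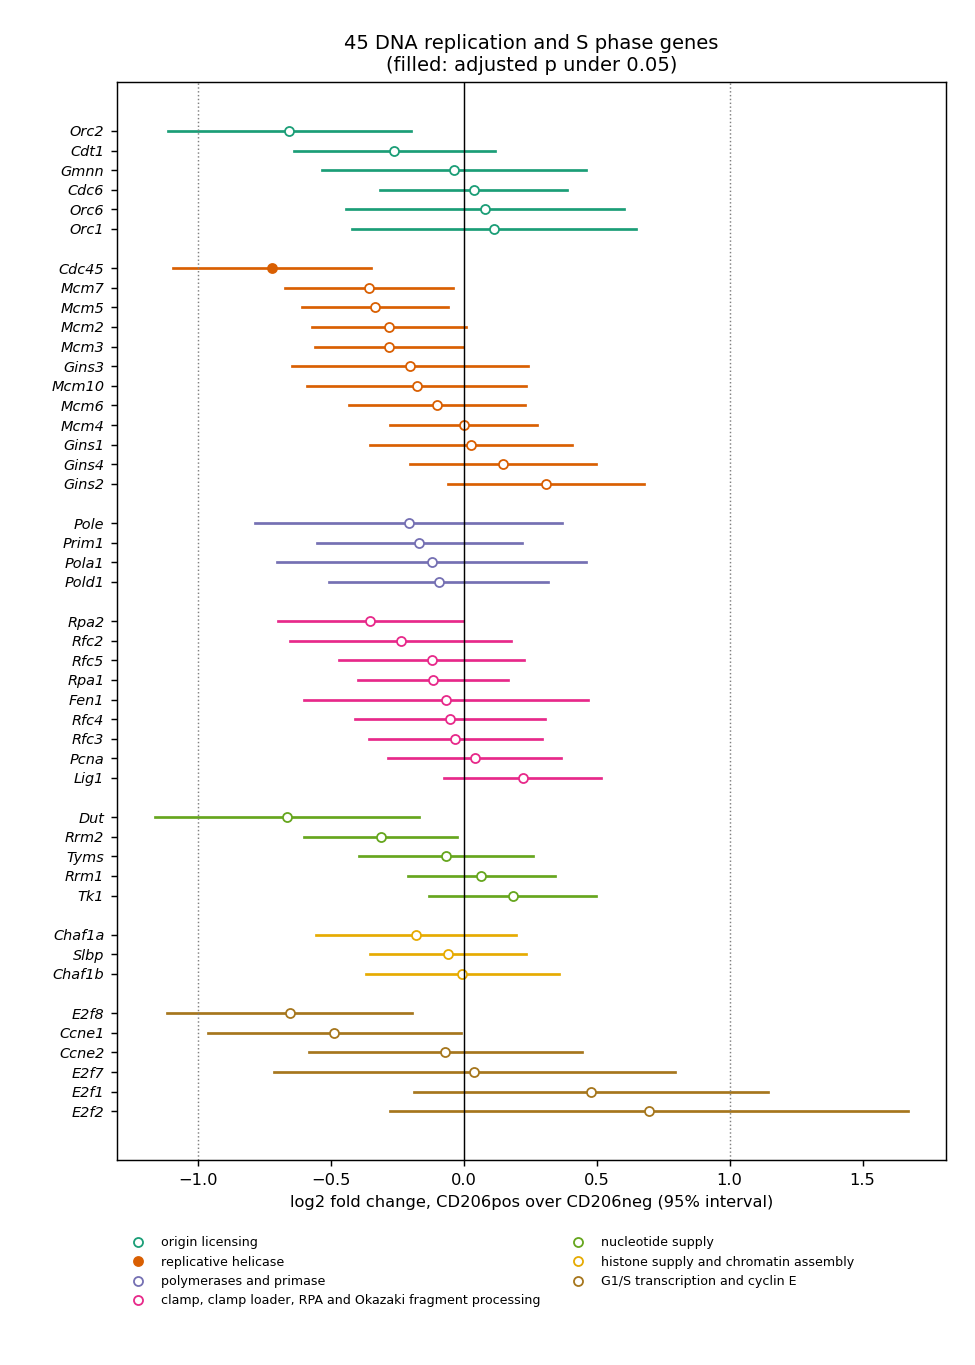
Log2 fold change (x axis, CD206pos over CD206neg) of each of the 45 members with its 95% interval, coloured by role; dotted lines mark a 2-fold difference. Cdc45 is the only filled point (adjusted p under 0.05), and 39 intervals stay between the dotted lines.

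Summed over the 45 members, the CD206neg libraries held 13677, 12211 and 12175 CPM (litters 1, 2 and 3) and the CD206pos libraries 11467, 11439 and 11388 CPM. The sums did not overlap, and the CD206pos mean of 11431 ± 40.2 (SD, n = 3) was 9.90% below the CD206neg mean of 12688 ± 857. By library totals the sum was 15.2% lower, at 11071 ± 96.3 against 13049 ± 645 CPM. The 6 subunits of the MCM ring held 4965 of the 12688 CPM in the CD206neg mean. They made up 701 of the 1256 CPM between the scaled means. Their sum was 14.1% lower in CD206pos, and that of the other 39 members was 7.19% lower. Without the ring the sums of the other 39 members were 8230, 7336 and 7602 CPM in CD206neg and 7439, 6988 and 7074 CPM in CD206pos, which overlap. By library totals these 39 members did not overlap, at 8296, 7570 and 7965 CPM against 7169, 6827 and 6824 CPM (12.6% lower).

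The groups did not overlap for 11 members with all CD206pos values lower, or 24.4%, against 11.8% of all tested genes, and for 4 members with all CD206pos values higher, against 12.8%. By library totals these counts were 13 lower, against 15.7% of all tested genes, and 1 higher (E2f2), against 10.1%. Of the 11 lower members 6 belong to the helicase (Mcm2, Mcm3, Mcm5, Mcm7, Cdc45 and Gins3), and the others are Orc2, Rpa2, Rrm2, Dut and E2f8. The 4 higher members under TMM scaling were Gins2, Lig1, Tk1 and E2f2, and 3 of these 4 overlapped by library totals. Litter by litter, 16 members were lower in CD206pos in all 3 litters (35.6%, against 22.0% of all tested genes) and 6 were higher in all 3 (13.3%, against 21.7%). The shares over all tested genes are not matched for precision. The median SE of the log2 fold change was 0.16 for the members and 0.32 over all tested genes.

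The G1/S regulators form the upstream end of the pathway. E2f1 encodes the activator that responds to release from the retinoblastoma protein. It was at 15.3, 28.3 and 18.7 CPM in CD206neg and 33.5, 25.1 and 28.3 CPM in CD206pos (litters 1, 2 and 3). The groups overlapped, since in litter 2 CD206neg was higher than CD206pos, and the log2 fold change of 0.48 ± 0.29 (SE) did not pass in edgeR (adjusted p = 0.47). E2f2, a second activator, was at 5.83, 5.68 and 4.34 CPM against 6.11, 8.25 and 11.3 CPM (log2 fold change 0.70, 95% interval -0.28 to 1.67, edgeR adjusted p = 0.48). Its values did not overlap between groups, and the interval is the widest of all members.

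E2f8 encodes an atypical E2F that represses S phase genes late in the cycle. It was at 55.2, 66.7 and 47.2 CPM in CD206neg and at 35.7, 34.6 and 37.1 CPM in CD206pos. Every CD206pos library was below every CD206neg library, with a log2 fold change of -0.65 ± 0.20 (SE) that missed the threshold in edgeR (adjusted p = 0.12) and passed in DESeq2 (adjusted p = 0.043). Its relative E2f7 was nearly level, at 17.4 ± 3.81 and 17.9 ± 5.92 CPM (SD, n = 3). Ccne1, encoding cyclin E1, the partner of Cdk2 at S phase entry, was at 113, 95.9 and 73.6 CPM in CD206neg and 76.3, 68.6 and 57.0 CPM in CD206pos. It was lower in CD206pos in each litter, but CD206pos of litter 1 exceeded CD206neg of litter 3 (log2 fold change -0.49 ± 0.21, SE, edgeR adjusted p = 0.27). Ccne2, encoding cyclin E2, was at 71.0 ± 11.9 and 67.7 ± 15.8 CPM.

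Among the licensing genes Orc2 stood apart. Orc2, a core subunit of the origin recognition complex (ENSMUSG00000026037.14, GRCm38 chromosome 1, 58462771 to 58505109, minus strand), was at 124, 88.0 and 107 CPM in CD206neg and at 81.6, 60.5 and 60.5 CPM in CD206pos. All CD206pos values were lower (log2 fold change -0.65 ± 0.20, SE, adjusted p = 0.12 in edgeR and 0.029 in DESeq2). Of its annotated exonic bases 29.8% are shared with Nif3l1, so its count rests on the rest of the gene. Cdt1, which brings the MCM ring to origins, was at 201, 212 and 152 CPM in CD206neg and 167, 160 and 144 CPM in CD206pos, lower in each litter with overlapping groups (edgeR adjusted p = 0.49). Its inhibitor gene Gmnn, encoding geminin, was at 193 ± 15.2 and 188 ± 58.9 CPM. Orc1, Orc6 and Cdc6 had log2 fold changes of 0.11, 0.08 and 0.04. In Orc6, Gmnn and Cdc6 the CD206pos library of litter 1 was the highest of all 6 (222, 254 and 242 CPM) while the other CD206pos libraries lay at 118 to 195 CPM.

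Cdc45 encodes the factor that joins the MCM ring and GINS to make the active helicase (ENSMUSG00000000028.14, GRCm38 chromosome 16, 18780447 to 18811987, minus strand). It was at 166, 162 and 155 CPM in CD206neg and at 112, 100.4 and 80.7 CPM in CD206pos. The CD206neg libraries lay close together, and all CD206pos libraries were below them. The difference was -0.72 ± 0.16 on the log2 scale (SE, 95% interval -1.09 to -0.35), with adjusted p-values of 0.044 in edgeR, 0.00097 in DESeq2 and 0.017 in limma-voom. Within litters it was -0.57, -0.69 and -0.94. An overlap with exons of Ufd1 takes up 9.28% of its exonic bases.

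Of the 6 subunits of the MCM ring, Mcm5 was at 1047, 971 and 886 CPM in CD206neg and 748, 799 and 760 CPM in CD206pos, and its log2 fold change, -0.33 ± 0.12 (SE), did not pass in edgeR (adjusted p = 0.19). Mcm7 was at 492, 434 and 375 CPM against 345, 324 and 347 CPM (log2 fold change -0.36, edgeR adjusted p = 0.22), and Mcm2 at 872, 765 and 782 CPM against 601, 708 and 684 CPM (log2 fold change -0.28, edgeR adjusted p = 0.30). In these genes and in Mcm3 every CD206pos library was below every CD206neg library, by group means that differed by 17.6% to 21.9%. Mcm4 and Mcm6, which belong to the same ring, did not share this separation. Mcm4 was at 525 ± 34.6 and 525 ± 26.2 CPM (95% interval of the log2 fold change -0.28 to 0.28), and Mcm6 was at 1185 ± 148 and 1104 ± 128 CPM (-0.43 to 0.23). Differences between the subunits' fold changes were not tested.

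Mcm10, which helps to activate the loaded helicase, was at 247 ± 33.9 and 218 ± 44.1 CPM and was lower in CD206pos in all 3 litters. The 4 subunits of GINS had log2 fold changes of 0.03 (Gins1), 0.31 (Gins2), -0.20 (Gins3) and 0.15 (Gins4), none of them called in edgeR. Gins2 was at 130.5 ± 20.2 and 162 ± 11.9 CPM, but 67.3% of its exonic bases are shared with Gse1, and by library totals its groups overlapped.

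Per kilobase of annotated exon, subunits of 1 complex were not at equal levels. Among the 6 MCM subunits Mcm7 was lowest in every library, at 73.3 to 111 RPKM, and the highest was Mcm3 (234 to 300 RPKM) in the CD206neg libraries and CD206pos of litter 1 and Mcm6 (252 and 253 RPKM) in CD206pos of litters 2 and 3. The ratio of highest to lowest was 2.70 to 3.44 over the 6 libraries. In GINS, Gins4 was highest and Gins3 lowest in every library, with ratios of 4.65 to 7.31, and in the small subunits of the clamp loader Rfc4 was highest and Rfc3 lowest, with ratios of 2.63 to 3.66. In both sets the highest and the lowest subunit were thus the same genes in both populations. Over all 45 members the highest RPKM values belonged to Mcm3, Mcm5, Mcm6 and Rrm2 (193 to 279 as group means) and the lowest to E2f2, E2f7 and Pole (1.08 to 4.14). The length counts every annotated exon of a gene, so that RPKM understates genes with long or partly shared exons.

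**Figure D2:**
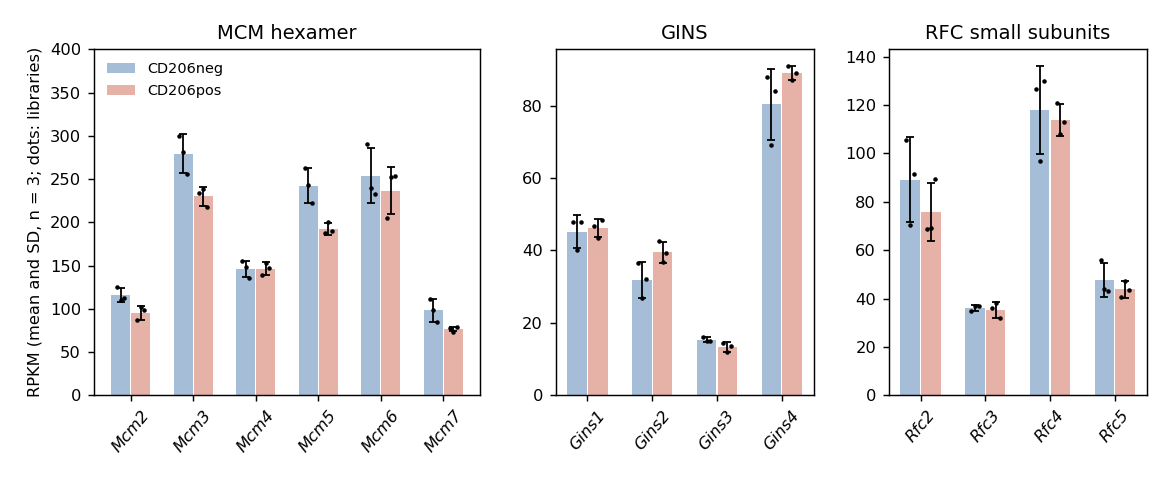
RPKM (y axes, separate scales) of subunits of the MCM ring, GINS and the clamp loader, as group means with SD (n = 3) and 1 dot per library. Mcm7, Gins3 and Rfc3 are the lowest of their sets in both populations, and Mcm2, Mcm3, Mcm5, Mcm7 and Gins3 show CD206pos dots below all CD206neg dots.

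The genes of polymerases and primase were uncalled, with all 4 log2 fold changes between -0.21 and -0.09. Prim1, the catalytic subunit of primase, was at 148, 112 and 131 CPM in CD206neg and 130, 103 and 116 CPM in CD206pos, with overlapping groups (log2 fold change -0.17, edgeR adjusted p = 0.71). Pole, the leading-strand polymerase, was at 32.8, 55.0 and 50.7 CPM against 34.1, 38.4 and 47.6 CPM, with CD206neg of litter 1 the lowest of all 6 libraries (edgeR adjusted p = 0.77). Pola1, which extends the primers, was at 111 ± 36.0 and 102 ± 15.4 CPM, and Pold1, of the lagging-strand polymerase, at 237 ± 19.9 and 222 ± 50.2 CPM.

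Among fork proteins, Pcna, the sliding clamp on which the polymerases travel, was level. It was at 153, 138 and 158 CPM in CD206neg and 170, 147 and 145 CPM in CD206pos, with a log2 fold change of 0.04 (95% interval -0.28 to 0.37) that was -0.05 by library totals. Pseudogenes named Pcna-ps1 and Pcna-ps2 are annotated, and reads that map equally well to them may be missing from the count. Rpa2, a subunit of the single-strand binding protein, was at 323, 242 and 277 CPM in CD206neg and 225, 237 and 198 CPM in CD206pos. Its groups were apart by a narrow gap (log2 fold change -0.35 ± 0.15, SE, edgeR adjusted p = 0.28), while Rpa1 was at 514 ± 43.3 and 475 ± 20.3 CPM.

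Lig1, the ligase that seals Okazaki fragments, was at 294, 351 and 344 CPM in CD206neg and 378, 369 and 406 CPM in CD206pos. All CD206pos values were higher under TMM scaling and overlapped by library totals (log2 fold change 0.22, edgeR adjusted p = 0.45). Of the small clamp loader subunits Rfc2, Rfc3, Rfc4 and Rfc5, the log2 fold changes lay between -0.24 and -0.03. Fen1, the flap nuclease of Okazaki fragments, was at 29.6 ± 5.11 and 28.3 ± 2.98 CPM, but 84.2% of its exonic bases are shared with Tmem258 and Gm10143, so its level here is a part of the whole.

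In nucleotide supply, Dut was the only member besides Cdc45 that both DESeq2 and limma-voom called. Dut encodes dUTPase, which keeps uracil out of DNA. It was at 219, 204 and 179 CPM in CD206neg and 170, 112 and 97.9 CPM in CD206pos. Every CD206pos value was lower, though CD206pos of litter 1 came close to CD206neg of litter 3. On the log2 scale the difference was -0.66 ± 0.22 (SE), with adjusted p-values of 0.15 in edgeR, 0.030 in DESeq2 and 0.030 in limma-voom. Without CD206pos replicate 1 it was -0.94 with an edgeR adjusted p of 0.023. On leaving out any other single library, or both libraries of a litter, Dut was not called (edgeR adjusted p between 0.062 and 0.59).

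Rrm2, the S phase subunit of ribonucleotide reductase, was at 836, 729 and 738 CPM in CD206neg and 670, 583 and 601 CPM in CD206pos, with no overlap (log2 fold change -0.31 ± 0.13, SE, edgeR adjusted p = 0.24). Its partner Rrm1 was at 822 ± 41.8 and 860 ± 65.2 CPM (95% interval of the log2 fold change -0.21 to 0.34). Tyms, thymidylate synthase, was at 221, 202 and 218 CPM against 235, 186 and 191 CPM, and the groups overlapped (edgeR adjusted p = 0.89). Tk1, thymidine kinase, was at 149 ± 5.46 and 169 ± 15.5 CPM, with higher CD206pos values in all litters under TMM scaling and overlapping groups by library totals.

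In chromatin assembly, Slbp, which binds the stem-loop of histone mRNAs, was at 389, 358 and 418 CPM in CD206neg and 350, 404 and 366 CPM in CD206pos (log2 fold change -0.06, edgeR adjusted p = 0.89). Chaf1a, the large subunit of chromatin assembly factor 1, was at 187, 182 and 136 CPM against 160, 139 and 147 CPM (log2 fold change -0.18, edgeR adjusted p = 0.67), and Chaf1b was at 171 ± 24.5 and 170 ± 16.9 CPM. The groups overlapped in each of these 3 genes. Replication histone genes were taken by the start of their symbols, linker histone H1 genes included. Many of them are near-identical copies, and 23 of 68 listed passed the filter. None was called by edgeR, DESeq2 or limma-voom. In edgeR 1 was higher at an unadjusted p under 0.05, against 9.53% of all tested genes. The median log2 fold change of the 23 was 0.26, with 16 above 0 and 7 below. Raw reads of all 68 listed genes, not scaled to library size, summed to 4214 in CD206pos of litter 1 and to 2090 to 3152 in the other libraries.

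**Figure D3:**
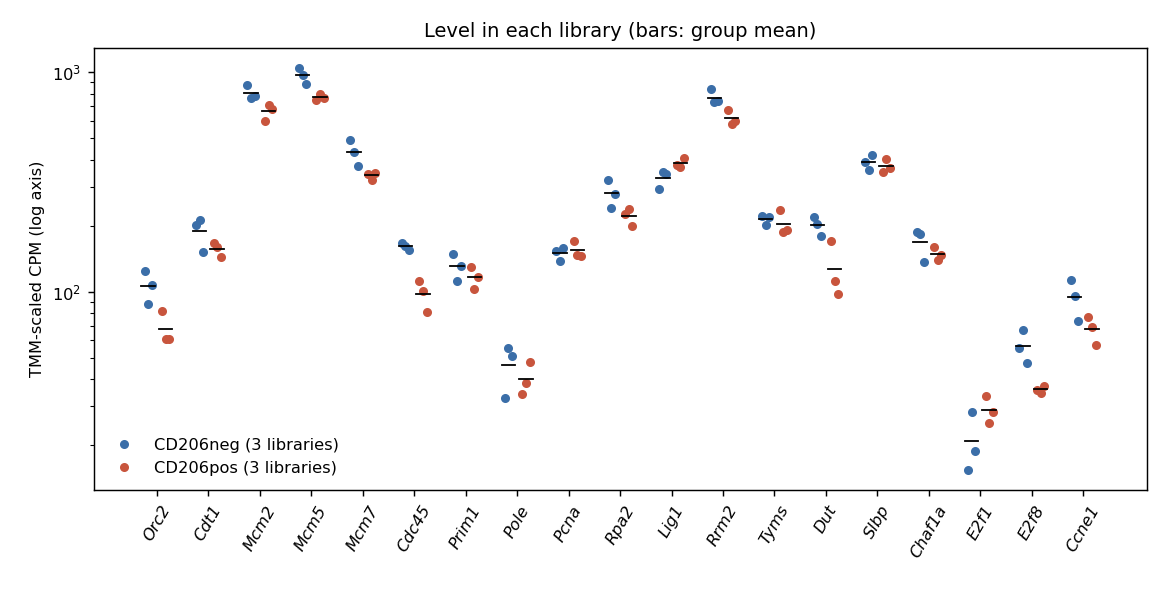
TMM-scaled CPM (log y axis) of 19 members in each of the 6 libraries, with bars at the group means. Cdc45, Orc2, Dut, E2f8, Mcm2, Mcm5, Mcm7, Rpa2 and Rrm2 have all CD206pos points below all CD206neg points, Lig1 has them above, and the other genes overlap.

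In each group the library of litter 1 was the highest for more members than the other libraries were. CD206neg of litter 1 was the highest CD206neg library for 31 of 45 members and the lowest for 7. CD206pos of litter 1 was the highest CD206pos library for 23 and the lowest for 14. Its sum over the members, 11467 CPM, lay near those of litters 2 and 3 (11439 and 11388 CPM). The same CD206pos library had the lowest sum of macrophage markers in its group (5952 against 8330 and 8629 CPM). A link between that sum and the members was not tested. Within litters the median log2 difference over the 45 members was -0.16, -0.05 and -0.11 for litters 1, 2 and 3. Within groups the median coefficient of variation of the members was 12.5% in CD206neg and 9.92% in CD206pos, against 22.4% and 25.2% over all tested genes, many of which have fewer reads.

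Among other genes of the pathway, edgeR called Dna2 and the 3 D-type cyclins. Of 35 further licensing and fork genes, all tested, 1 fell, against 1.9% of all tested genes, and 34 did not pass. The median of the 35 log2 fold changes was -0.12. The gene that fell was Dna2, a nuclease and helicase that trims long Okazaki flaps and resects broken ends. It was at 144, 171 and 136 CPM in CD206neg and 54.4, 58.9 and 69.4 CPM in CD206pos (log2 fold change -1.30 ± 0.17, SE, edgeR adjusted p = 0.0046). All CD206pos values were less than those of CD206neg, and the call was kept without any single library, without litter 1 or litter 3, and lost without litter 2 (adjusted p = 0.16). Of 18 further genes of nucleotide supply and replicating chromatin none passed in edgeR, DESeq2 or limma-voom. At an unadjusted p under 0.05 in edgeR, 3 were lower and 1 was higher, against 8.05% and 9.53% of all tested genes. With the litter as a block, Cdca7 was called lower.

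Of 24 further G1/S control genes, 2 fell, 1 rose and 21 did not pass in edgeR. Over all tested genes edgeR called 1.9% lower and 2.97% higher. DESeq2 called 4 lower, adding Tfdp1 and Cdk2, against 4.34% of all tested genes. With limma-voom 3 were called lower, adding Tfdp1, against 2.23%. DESeq2 and limma-voom each called 1 higher. Ccnd2, encoding cyclin D2, fell from 580, 481 and 423 CPM to 130, 111 and 70.6 CPM (log2 fold change -2.25 ± 0.24, SE, edgeR adjusted p = 0.0020). Ccnd3, encoding cyclin D3, fell from 396 ± 49.4 to 238 ± 41.3 CPM (edgeR adjusted p = 0.046). Ccnd1, encoding cyclin D1, rose from 48.4, 31.7 and 37.7 CPM to 86.1, 125 and 102 CPM (log2 fold change 1.41 ± 0.23, SE, edgeR adjusted p = 0.010). Cyclins D bind Cdk4 and Cdk6 in G1, upstream of the E2F factors. Over all tested genes, the groups did not overlap for 11.8% with CD206pos lower and for 12.8% with CD206pos higher. Of the 24 genes, 6 showed no overlap with CD206pos lower, namely Ccnd2, Ccnd3, Tfdp1, Cdk2, E2f4 and Cdc25a. With CD206pos higher it was 1, Ccnd1. At an unadjusted p under 0.05 in edgeR, 6 of the 24 were lower and 2 were higher, against 8.05% and 9.53% of all tested genes. The calls of all 3 D cyclin genes were lost without litter 2 (edgeR adjusted p between 0.095 and 0.35). Those of Ccnd1 and Ccnd3 were also lost without litter 3 (0.12 for each). The Ccnd3 call was lost without litter 1 (0.087) and without any single library but CD206pos replicate 1 (0.074 to 0.17), and the Ccnd1 call without CD206neg replicate 2 or 3 or CD206pos replicate 2 (0.051 to 0.068).

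As a reference for later stages of the cycle, 16 mitosis genes such as Mki67, Top2a and Ccnb1 had a median log2 fold change of -0.06. None was called by edgeR, DESeq2 or limma-voom. None was at an unadjusted p under 0.05 in edgeR, against 8.05% of all tested genes lower and 9.53% higher. All 16 had 95% intervals within a 2-fold difference in either direction, against 42.5% of all tested genes.

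**Figure D4:**
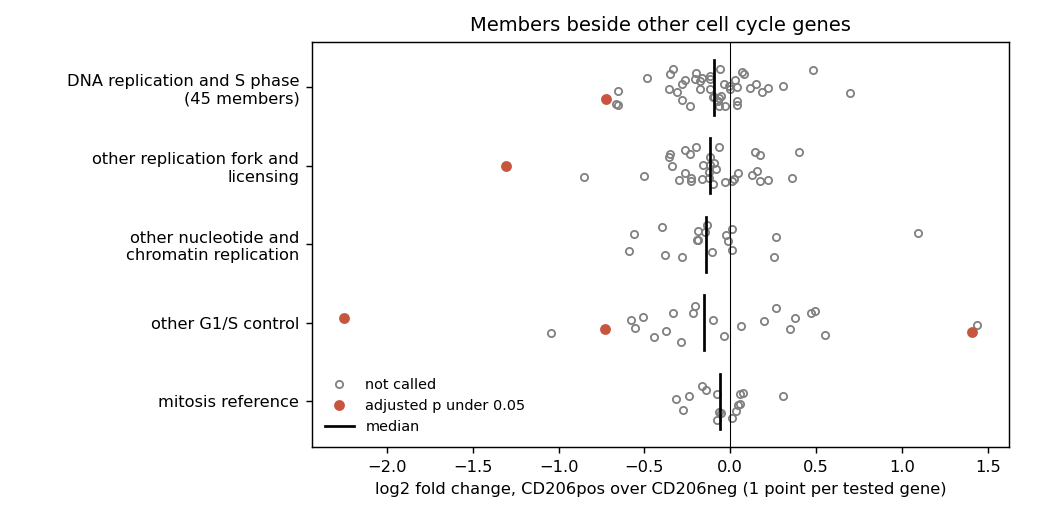
Log2 fold change (x axis) of each tested gene in the 45 members and in 4 further cell cycle lists, with called genes filled and a bar at each median. Points of the members and of the mitosis genes lie close to 0, and Ccnd2, Dna2 and Ccnd1 lie farthest from it among called genes.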

How the data were processed

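Tissue was digested with collagenase per the labels' protocols, cells were sorted on GFP and CD206-APC, and RNA was purified on micro columns. The deposited files hold raw read counts per gene, which the authors made with featureCounts 1.5.2 over exons of GENCODE vM14 (GRCm38), with no option for strand, multi-mapping reads or overlapping genes, per the file headers. The submitters' processing notes name STAR 2.3. Read length, library strand and batch were not given in the sources used here. Symbols came from GENCODE M21 (51633 of 51912 identifiers matched).

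Counts were fitted with edgeR 4.0.16 in R 4.3.3 (filterByExpr, TMM, robust quasi-likelihood F test, no block, Benjamini-Hochberg over 12668 genes, threshold 0.05), tested on simulated data first. The SE is the log2 fold change divided by the square root of F, and intervals (95%) use the fit's degrees of freedom. Alternatives were scaling by RLE, upper quartile or totals, a looser filter (1 read) and a stricter one (5 CPM in 3 libraries), DESeq2 1.42.0, limma-voom 3.58.1 with quality weights, a litter block, and leaving out each library or litter. The number in the titles was read as the litter. Deviations of same-numbered libraries from their group means correlated at 0.09, 0.04 and 0.18 over 12668 genes. Libraries of the same group differed beyond sampling noise (chi-square per degree of freedom of 36.9 or more over the 6 pairs within groups). Members and lists were chosen with earlier results of these data known. Values in each library are given for called members, the 2 with the smallest p per role, and Mcm2, Pcna, Rrm2, Tyms, E2f1 and Ccne1. E2f2 is added because its fold change was the highest, a choice made after its values were seen. Reads carry no molecular identifiers and may repeat a molecule.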

Additional observations from a re-analysis of the deposited data

How the results depend on the processing

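The count of 1 called member, Cdc45, was equal with RLE, upper-quartile and total scaling, both other filters and the litter as a replicate block (703 genes called in all, median of the members -0.08). It was 4, all lower, with DESeq2 and 2, both lower, with limma-voom. Without 1 library or litter it ranged from 0 to 2, all lower, with calls over all genes from 3 (without litter 2) to 561. DESeq2 called 1210 genes, against 617 in edgeR. No setting called a member higher. The median log2 fold change of the members was -0.18 with library totals and ranged from -0.163 to -0.0478 on leaving out 1 library or litter. Pcna, at 0.04, was at -0.0477 with library totals and between -0.0381 and 0.0887 on leaving out 1 library or litter. In all, 18 members changed sign under at least 1 alternative, each at most 0.12 from 0 in edgeR as reported. Leaving out libraries also lowers the power, and the cause of each loss was not tested. Depth did not limit detection of any member, since each had at least 77 reads in every library.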
